A study of Mus musculus with 126 samples.

Results

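The 10 genes described here encode proteins of the cartilage matrix or proteins secreted with it: Lect1, Col2a1, Col9a1, Col9a2, Col9a3, Col11a1, Col11a2, Hapln1, Matn4 and Mia. They were chosen by name from the 48490 gene identifiers of the table, with earlier results of these data known, and each of the 10 names was found. Lect1 is the table's older symbol for Cnmd. Their levels were read in 126 single cells dissociated from the endolymphatic sac, a blind epithelial pouch of the inner ear, of mouse embryos at E14.5, the age in days. Each cell had its RNA copied by Smart-seq2, a plate-based protocol with no molecular identifiers. The values are FPKM, fragment numbers scaled to the transcript's length and to the mapped fragments of the cell. The study compared 33 cells labelled wild type with 93 cells labelled Sox9 Y440X/+, which carry a named allele of Sox9 on 1 of their chromosomes.

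A cell is called to have detected a gene at 1 FPKM or more, and a gene below that level is called not detected, never absent, since a transcript can be missed in a single cell. Cells were divided by Epcam, the gene of an epithelial adhesion protein. Epcam was detected in 32 wild-type and 81 mutant cells, the Epcam cells below, at 92.6 FPKM or more and 53.1 FPKM or more respectively. It was listed at 0 in the other 13 cells, 1 of them wild type and 12 mutant. The keratin genes Krt8 and Krt18 were detected in all 32 wild-type and all 81 mutant Epcam cells.

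Some cells stood apart from the others of their genotype. No animal, litter or plate is named, so each genotype counts as 1 sample, no test was made between them, and intervals cover counting error only. Cell names begin with an undefined prefix, P9 in all 93 mutant cells and in 1 wild-type cell and P10 in the other 32 wild-type cells, so prefix and genotype cannot be told apart beyond that 1 cell. Transcripts of the Y chromosome were detected in 32 of 33 wild-type cells and in 4 of 93 mutant cells, all 4 with Epcam, and values without these 4 cells are given where they differ. Xist was detected in 0 of the 33 and 81 of the 93, so genotype and sex cannot be told apart beyond those few cells. The number of genes listed above 0 was 5244 at the median in wild-type Epcam cells (2189 to 6493) and 4453 in mutant Epcam cells (2035 to 9358). The read depth is unknown. Sox9 was found in 29 (of 32) wild-type Epcam cells and 75 (of 81) mutant ones, at mean levels of 14.8 and 13.6 FPKM. The level of the transcript does not check the Y440X label, since the table holds no bases.

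As background, cartilage fibrils are built of type II collagen, the product of Col2a1, with type XI collagen inside the fibril and type IX collagen on its surface. SOX9, helped by SOX5 and SOX6, is the master activator of these genes in chondrocytes, and SOX10 is its close relative with a nearly identical DNA-binding domain. Several of these collagens are also known in non-cartilage parts of the inner ear, where they form acellular gels, and in the embryonic otic epithelium.

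The sequences just upstream of the genes are shown because SOX9 and SOX10 bind DNA at short A-and-T-rich words. RefSeq starts of assembly GRCm38.p6 gave 10 promoters for 8 of the 10 genes, each read as the 250 bases before the start on the gene's own strand. Capitals mark the SOX words ACAAAG or else ACAATG, the related words TCAAAG or else TCAATG, and the word GGGCGG, on either strand; the words do not overlap here. The 4 shown belong to Lect1 (chr14:79662184-79662433, minus strand), Mia (chr7:27181150-27181399, minus strand) and Col9a1 at its first start (chr1:24177360-24177609, plus strand), whose mean levels were lower in mutant cells, and to Col11a1 (chr3:114030290-114030539, plus strand), which was detected in a like share of both groups.
Lect1: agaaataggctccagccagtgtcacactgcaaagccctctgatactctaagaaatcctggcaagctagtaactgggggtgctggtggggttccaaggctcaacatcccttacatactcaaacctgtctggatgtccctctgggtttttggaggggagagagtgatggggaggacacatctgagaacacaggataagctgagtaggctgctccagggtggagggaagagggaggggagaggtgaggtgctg
Mia: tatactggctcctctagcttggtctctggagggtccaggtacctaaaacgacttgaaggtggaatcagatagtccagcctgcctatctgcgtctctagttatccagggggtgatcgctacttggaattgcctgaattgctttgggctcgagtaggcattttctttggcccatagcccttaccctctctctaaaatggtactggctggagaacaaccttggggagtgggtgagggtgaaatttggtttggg
Col9a1: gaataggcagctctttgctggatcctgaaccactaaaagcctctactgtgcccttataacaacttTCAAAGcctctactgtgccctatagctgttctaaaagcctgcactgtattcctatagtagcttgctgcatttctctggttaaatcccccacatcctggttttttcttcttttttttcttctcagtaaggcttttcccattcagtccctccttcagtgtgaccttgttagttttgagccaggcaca
Col11a1: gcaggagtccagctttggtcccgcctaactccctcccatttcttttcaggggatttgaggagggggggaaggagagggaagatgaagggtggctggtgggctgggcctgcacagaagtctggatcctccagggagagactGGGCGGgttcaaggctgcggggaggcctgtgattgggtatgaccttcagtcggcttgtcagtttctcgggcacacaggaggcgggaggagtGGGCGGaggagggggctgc
Neither ACAAAG nor ACAATG, the usual SOX words, occurred in any of the 10 promoters, beside 25.2% of all 32851 RefSeq mouse promoters of the same length. With TCAAAG and TCAATG added, 3 of the 10 promoters held a word (Col9a1 at its first start, Col9a2 and Matn4 at its first start), beside 39.4% of all. The TCAAAG of Col9a1 begins 185 bases before the start. GGGCGG, the word of a GC box, occurred 2 times in the Col11a1 promoter, and 32.7% of all promoters held it. A match here is a description of letters only, and binding was not measured.

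The first question was which of the 10 genes the Epcam cells expressed and in what order. In wild-type cells the 10 genes were detected in 12.5% to 68.8% of cells. Lect1 came first at 68.8%, followed by Col9a3 at 65.6%, Col11a1 at 50%, Mia at 46.9%, Col9a2 at 43.8%, Col2a1 at 37.5%, Col11a2 at 31.2%, Col9a1 at 25%, Hapln1 at 21.9% and Matn4 at 12.5%. In mutant cells Col11a1 came first at 51.9% and Lect1 stood eighth at 12.3%. Between them lay Col9a3 at 35.8%, Hapln1 at 30.9%, Col9a2 at 29.6%, Col11a2 and Mia at 23.5% each and Col2a1 at 14.8%, and below Lect1 were Matn4 at 11.1% and Col9a1 at 6.17%. Within each genotype the exact 95% intervals of neighbours in this order overlapped at every step. By mean level per length, Mia (217 FPKM) and Lect1 (147 FPKM) led in wild-type cells, and Mia (30.8 FPKM) and Col9a3 (24.4 FPKM) in mutant cells.

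Genes were set against all genes by 2 rules in place of a test. The share rule calls a gene whose share of detecting cells differed 2-fold or more between the genotypes, and the mean rule does the same for the mean FPKM. Both cover 10575 genes detected in at least 10% of the Epcam cells of either genotype, and all 10 cartilage matrix genes passed that filter. Col9a1 passed it only through the wild type (25% against 6.17% of mutant cells), so the filter favoured its call as lower. The share rule called 3 of the 10 lower in mutant cells (Lect1, Col2a1 and Col9a1), beside 11.2% of all genes, and 0 higher, beside 3.81%. The mean rule called 4 lower (Lect1, Col9a1, Col9a2 and Mia), beside 13.3% of all genes, and 1 higher (Hapln1), beside 12%. Without the 4 mutant cells with Y-linked transcripts the share rule called 4 lower, with Mia added, beside 13.1% of 10622 genes. The median ratio of mutant to wild-type share was 0.61 over the 10 genes and 0.87 over all genes, and that of mean FPKM was 0.63 and 0.95. The lower all-gene medians go with the lower number of listed genes per mutant cell, and the part of detection in each gene's difference was not tested.

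**Figure D1:**
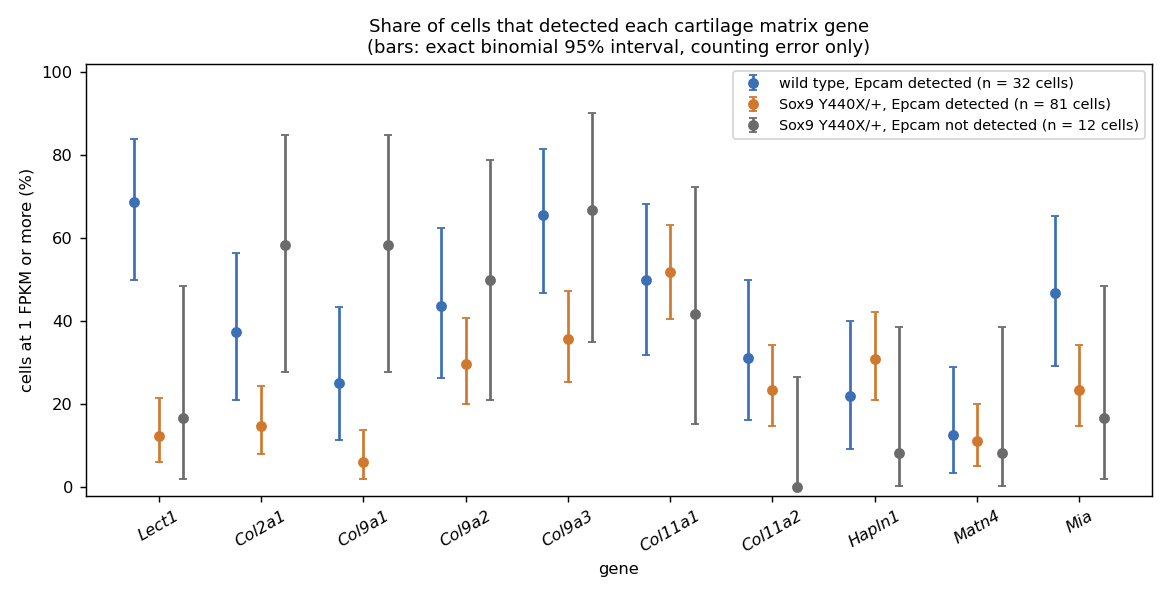
Share of cells at 1 FPKM or more (vertical axis, percent) for each of the 10 genes in wild-type Epcam cells, mutant Epcam cells and mutant cells without Epcam. Points are shares and bars are exact binomial 95% intervals, and the Lect1 intervals of the 2 genotypes (49.99% to 83.9% and 6.08% to 21.5%) do not overlap.

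Lect1 encodes chondromodulin, a membrane-anchored precursor whose secreted part blocks the growth of blood vessels into cartilage. Its gene (ENSMUSG00000022025.13) lies at chr14:79637690-79662170 on the minus strand in mm10. It had the lowest ratio of mutant to wild type among the 10, both by share and by mean FPKM, and the largest difference on the log2 scale, while Mia had the larger gap in mean FPKM. In the 22 wild-type Epcam cells that detected it, the level ran from 2.07 FPKM through a median of 126 to 687. In the 10 mutant cells that detected it, the level ran from 1.17 through 85.7 to 232 FPKM. The ranges of detecting cells overlapped, and the groups differed chiefly in how many cells detected the gene. The share was 68.8% for the wild type (49.99% to 83.9%, n = 32) and 12.3% for the mutant (6.08% to 21.5%, n = 81). The mean level was 147 FPKM against 12.6 FPKM, or 11.6-fold lower in mutant cells. On the log2(FPKM + 1) scale, which understates the change of scarce genes, the means were 4.70 ± 3.61 and 0.72 ± 2.06 (SD over cells, n = 32 and 81), a difference of -3.97.

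Of the 10 mutant cells with Lect1, 3 were among the 4 with Y-linked transcripts, at 221, 77.1 and 169 FPKM. Without those 4 cells Lect1 was detected in 7 of 77 mutant cells (9.09%, 3.73% to 17.8%), and its mutant mean was 7.23 FPKM, or 20.3-fold below the wild type. The 1 wild-type cell with the prefix of the mutant cells held Lect1 at 2.07 FPKM, the lowest of the detecting wild-type cells. Without it the wild-type share was 67.7%. Among cells with 3000 to 5000 listed genes, where the 2 groups are closer in detection, the shares were 75% of 12 wild-type and 11.3% of 53 mutant cells.

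Col2a1, on the minus strand at chr15:97975602-98004695, encodes the single chain of type II collagen, the main fibril of cartilage. It was detected in fewer mutant cells, but the mutant cells that detected it were not low. In the 12 detecting wild-type cells the level ran from 1.02 through 6.44 to 20.8 FPKM. In the 12 detecting mutant cells it ran from 1.74 through 22.2 to 51.6 FPKM, and 7 of them lay above the highest wild-type cell. The shares were 37.5% (21.1% to 56.3%) and 14.8% (7.90% to 24.4%), while the means over all Epcam cells were 3.63 and 2.88 FPKM, so the mean rule did not call the gene.

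The 2 type XI chains were closer between the genotypes. Col11a1 (chr3:114030540-114220718, plus strand) was detected in 16 of 32 wild-type cells and 42 of 81 mutant cells. Its level in detecting cells ran from 1.29 through 25.2 to 69.9 FPKM in wild-type and from 1.31 through 24.6 to 116 FPKM in mutant cells. The shares of 50% (31.9% to 68.1%) and 51.9% (40.5% to 63.1%) overlapped almost wholly. Col11a2 (chr17:34039437-34066685, plus strand) was detected in 10 of 32 and 19 of 81 cells, with detecting medians of 26.1 and 12.1 FPKM. The intervals of its shares, 16.1% to 50.01% and 14.8% to 34.2%, overlapped too.

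Type IX collagen is a heterotrimer of the products of Col9a1 (chr1:24177610-24252684), Col9a2 (chr4:121039385-121055322) and Col9a3 (chr2:180597790-180622189), all on the plus strand. All 3 chains were detected in a smaller share of mutant than of wild-type Epcam cells. Col9a1 was detected in 8 wild-type cells, from 10.2 through 22.2 to 53.3 FPKM, and in 5 mutant cells, at 13.01, 13.4, 23.6, 35.2 and 70.7 FPKM. The detecting cells lay in a like range in both groups, and the share was 25% (11.5% to 43.4%) against 6.17% (2.03% to 13.8%). Col9a2 was detected in 43.8% and 29.6% of cells, and the detecting medians were 45.6 and 19.6 FPKM. Its mean was 19.98 FPKM in wild-type and 7.90 FPKM in mutant cells, or 2.53-fold lower. Col9a3, the most widely detected of the 3, was found in 65.6% (46.8% to 81.4%) and 35.8% (25.4% to 47.2%) of cells, with detecting medians of 58.6 and 59.8 FPKM. The table coordinates of Col9a3 overlap those of Tcfl5 on the other strand, which was detected in 3 cells that also detected Col9a3. The strand setting of the counting is not given in the sources used here, so reads of the pair cannot be told apart in those cells.

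Hapln1 (chr13:89540636-89611832, plus strand) encodes the link protein that ties aggrecan to hyaluronan, and it was the gene of the 10 whose mean was higher in mutant cells by the rule. In 7 wild-type cells it was detected from 4.62 through 7.90 to 17.3 FPKM. In 25 mutant cells it was detected from 1.11 through 12.6 to 107 FPKM, and the highest mutant cells lay far above every wild-type cell. The mean was 2.06 against 7.14 FPKM, 3.46-fold higher, while the shares of 21.9% (9.28% to 39.97%) and 30.9% (21.1% to 42.1%) overlapped. Gm8546 on the other strand overlaps Hapln1 and was detected in 1 cell, together with Hapln1. The partner of the link protein was not detected: Acan, the aggrecan gene, was listed at 0 in all 126 cells, which allows it in up to 9.38% of the 32 wild-type and 3.70% of the 81 mutant Epcam cells.

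Matn4 (chr2:164389393-164405160, minus strand) encodes matrilin 4, an adaptor of matrix filaments that is also made outside cartilage. It was detected in 4 wild-type cells at 10.2, 12.3, 14.6 and 32 FPKM. In 9 mutant cells it ran from 4.17 through 18.01 to 60.9 FPKM. The groups overlapped in share (12.5% and 11.1%) and in mean (2.18 and 2.45 FPKM). Rbpjl on the other strand overlaps Matn4 and was detected in 1 cell, without Matn4.

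Mia (chr7:27179742-27181157, minus strand) encodes a small secreted protein with an SH3-like fold, made by chondrocytes and by melanocytic tumour cells. Its median level in detecting cells was the highest of the 10 in both genotypes, and mutant cells were lower both in that median and in the share that detected the gene. In 15 wild-type cells the level ran from 63.02 through 153 to 2589 FPKM. In 19 mutant cells it ran from 8.995 through 103 to 452 FPKM, and 6 of them lay below the lowest wild-type cell. The mean was 217 against 30.8 FPKM, or 7.02-fold lower in mutant cells. This ratio rested in part on 2 wild-type cells at 1915 and 2589 FPKM, the first of which carries the prefix of the mutant cells. Without the 2 highest cells of each group, a choice made after seeing the values, the means were 80.9 and 22.4 FPKM, or 3.62-fold lower. The share was 46.9% (29.1% to 65.3%) against 23.5% (14.8% to 34.2%), a ratio of 0.50 that just missed the share rule. The predicted gene Gm21983 overlaps Mia on the same strand and was detected in 2 cells, both with Mia.

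**Figure D2:**
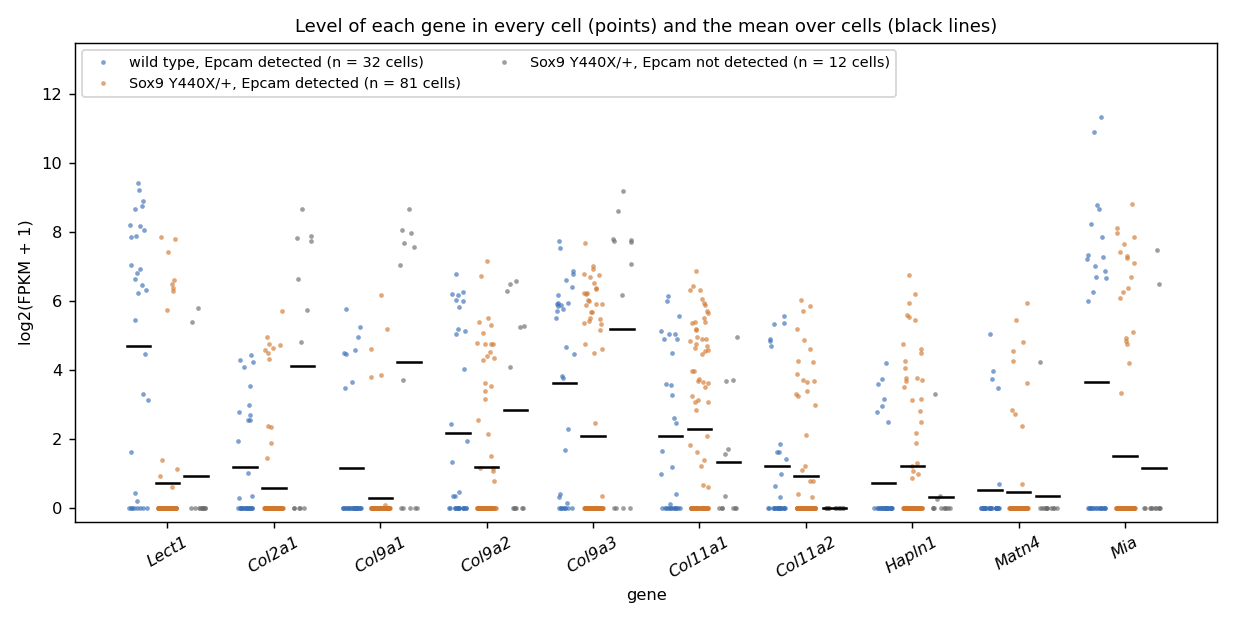
Level of each gene in every cell as log2(FPKM + 1) (vertical axis) for wild-type Epcam cells, mutant Epcam cells and mutant cells without Epcam. Each point is 1 cell and black lines are means over cells, and most values lie either at 0 or well above 1 FPKM.

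The second question was how the 10 genes were spread over cells. Wild-type Epcam cells detected 1 to 6 of the 10, with a median of 4 and a mean of 4.03 ± 1.51 (SD over 32 cells). Mutant Epcam cells detected 0 to 9, with a median of 2 and a mean of 2.40 ± 1.88 (SD over 81 cells). At least 3 genes were found in 81.2% of the wild-type cells (26 of 32, interval 63.6% to 92.8%) and in 40.7% of the mutant cells (33 of 81, interval 29.9% to 52.2%). In 0 wild-type cells were all 10 undetected, which allows such cells up to 9.38%, and in 9 mutant cells (11.1%) they were. The cell with 9 genes was 1 of the 4 with Y-linked transcripts and had the most listed genes of all cells, 9358. Without those 4 cells the mutant median was 2, and the highest number was 7.

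The number of genes detected also went with detection as a whole in mutant cells. Spearman's rho between the number of the 10 genes and the number of listed genes was 0.40 over 81 mutant cells and 0.02 over 32 wild-type cells, given as a description of cells that share a library source. By tertile of listed genes over all Epcam cells (up to 4263, up to 5061 and above), the median number was 3.5, 5 and 4 in 4, 10 and 18 wild-type cells. In 34, 27 and 20 mutant cells it was 1, 2 and 3. The wild-type median was thus higher in each tertile, and the lowest held only 4 wild-type cells.

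**Figure D3:**
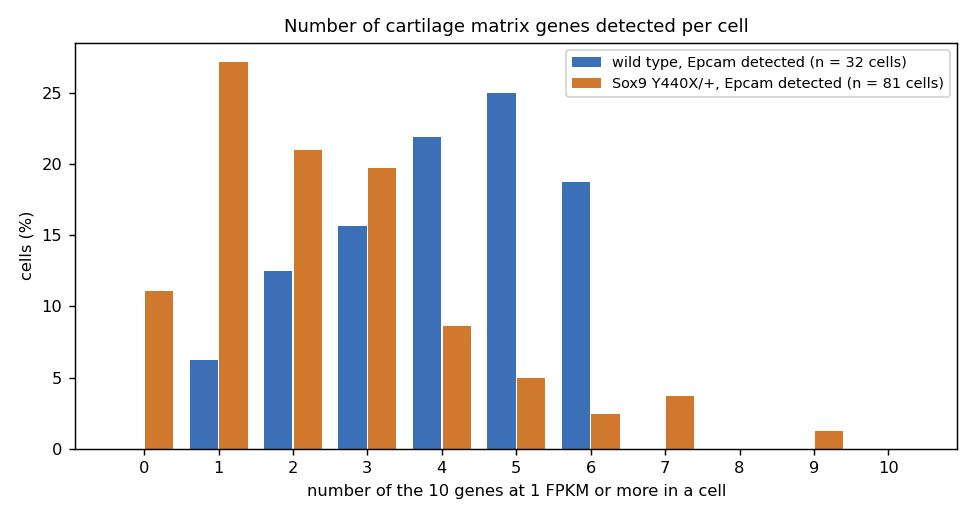
Share of Epcam cells (vertical axis, percent) by the number of the 10 genes at 1 FPKM or more (horizontal axis), with bars for the 2 genotypes. The most frequent number was 5 in wild-type cells (25% of 32) and 1 in mutant cells (27.2% of 81).

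Chains that form 1 collagen molecule were often not detected in the same cell. All 3 type IX chains were detected together in 2 of 32 wild-type and 1 of 81 mutant Epcam cells, although at least 1 chain was detected in 27 (84.4%) and 41 (50.6%). Without the cells with Y-linked transcripts, the mutant count was 0 of 77, which allows up to 3.90%. Type XI collagen adds a Col2a1 chain to the other 2, and its 3 genes met in 3.12% of the wild-type cells (1 of 32, interval 0.079% to 16.2%) and 8.64% of the mutant cells (7 of 81, interval 3.55% to 17%). Of the cells without detected Col2a1, 18 of 20 wild-type and 54 of 69 mutant Epcam cells still detected a chain of type IX or XI. Since a transcript can be missed in a cell that has it, a chain not detected here is not shown to be missing.

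Pairs of genes differed in how often they were found together in wild-type Epcam cells. All 7 cells with Hapln1 also had Lect1, while Lect1 was found in 15 of the 25 cells without Hapln1. Of the 15 cells with Mia, 14 had Col9a3, while Col9a3 was found in 7 of the 17 cells without Mia. Col9a2 and Col9a3 were found together in 12 of the 14 cells with Col9a2. In contrast, 2 of the 7 Hapln1 cells had Col9a3, against 19 of the 25 others. Spearman's rho of the levels over these 32 cells was 0.52 for Lect1 and Hapln1, 0.49 for Col9a2 and Col9a3, -0.29 for Lect1 and Col9a3 and -0.40 for Col9a3 and Hapln1. The median over all 45 pairs was -0.02.

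The pairs were not the same in the mutant cells. Of 25 mutant Epcam cells with Hapln1, 3 had Lect1, and of 19 with Mia, 8 had Col9a3. The highest rho there was 0.36, for Col2a1 and Col11a2, found together in 8 of the 12 cells with Col2a1. The median over 45 pairs was 0.15, and these values carry the relation to listed genes given above. Whether a pair differed between the genotypes was not tested.

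**Figure D4:**
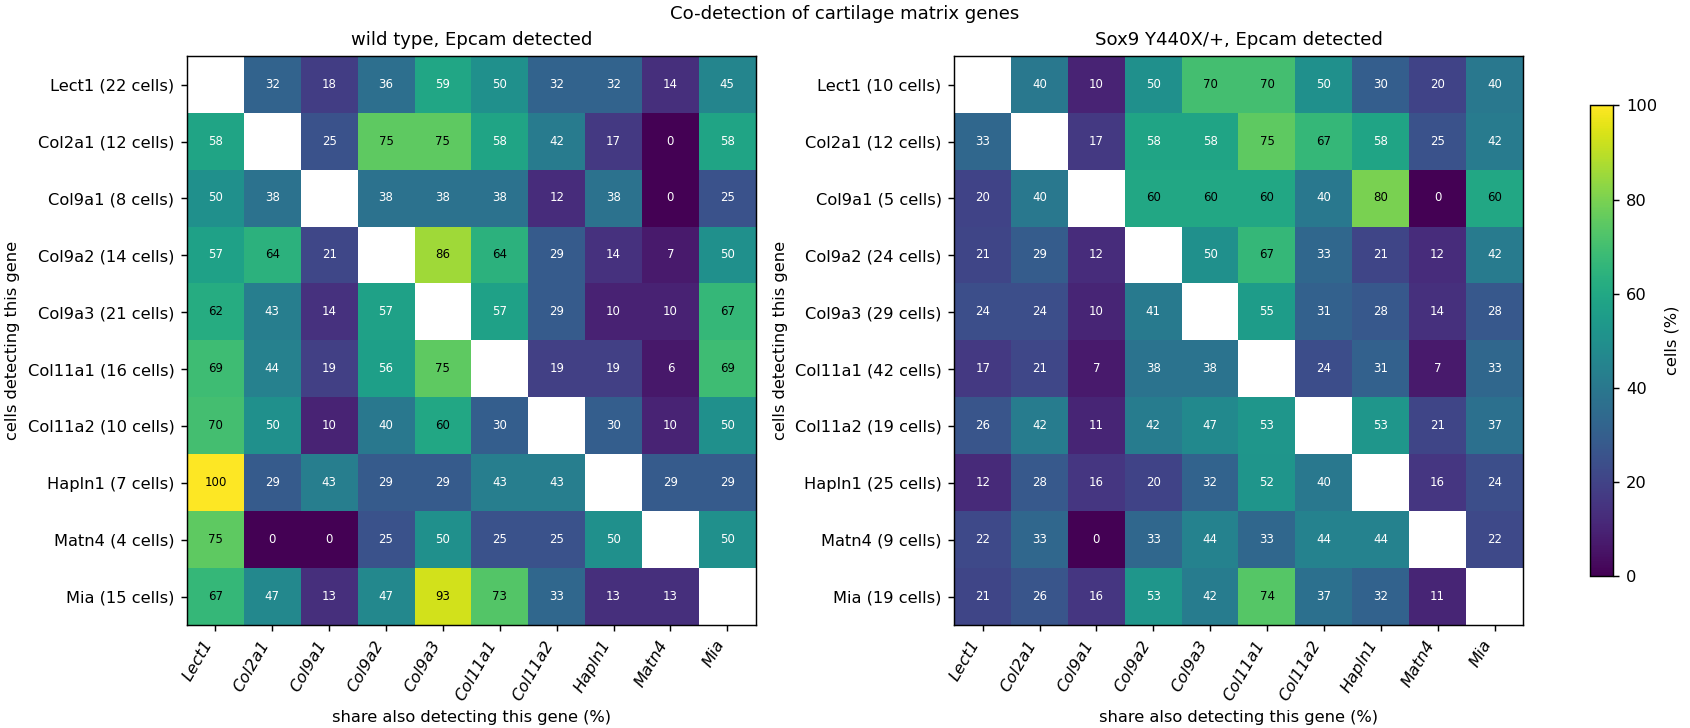
Of the Epcam cells that detected the gene of each row (number in brackets), the share in percent that also detected the gene of each column, for both genotypes on 1 colour scale. In wild-type cells 100% of 7 Hapln1 cells held Lect1 and 93% of 15 Mia cells held Col9a3, and in mutant cells 12% of 25 and 42% of 19 did.

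The third question was whether cells with and without detected Sox9 and Sox10 differed in the cartilage matrix genes. Among Epcam cells, 26 of the 32 wild-type ones had Sox10 (81.2%) but 10 of the 81 mutant ones (12.3%), at means of 21.2 and 1.36 FPKM. Both factors were detected in 23 wild-type cells, Sox9 alone in 6, Sox10 alone in 3 and neither in 0. In mutant cells the numbers were 7, 68, 3 and 3. Sox5, a partner of SOX9, was detected in 10 of 32 and 15 of 81 cells, and Sox6, the other partner, in 16 of 32 and 24 of 81. Their means went the other way, at 9.56 against 52.3 FPKM for Sox5, which the mean rule called higher (5.47-fold), and at 15.1 against 24.1 FPKM for Sox6. The highest mutant cells held Sox5 at 1323 and 787 FPKM. Sox8, the third SOXE gene, was listed at 0 in every cell.

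Within wild-type cells Lect1 was found both with and without Sox10. It was detected in 17 of 26 cells with Sox10 (65.4%, 44.3% to 82.8%) and in 5 of 6 without (83.3%, 35.9% to 99.6%). The median number of the 10 genes was 4 with and 4.5 without Sox10. Of 11681 genes that passed the filter, 14.8% were lower and 27.9% higher by the share rule in cells with Sox10, and of the 10 cartilage matrix genes 0 were lower and 2 higher. These were Hapln1 (7 of 26 against 0 of 6) and Matn4 (4 of 26 against 0 of 6), and 0 of 6 cells allows up to 50%. Both passed the filter only through the cells with Sox10. The 3 wild-type cells with Sox10 but no detected Sox9 all had Lect1, at 43.1, 267 and 481 FPKM. None of these 3 detected Col2a1, Col9a1 or Col9a2.

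Within mutant cells, more of the 10 genes were detected in the 10 cells with Sox10, and this rested on few cells. The median number of listed genes was 4839.5 in these 10 cells and 4378 in the other 71. Col9a2 was detected in 7 of these 10 against 17 of the other 71, and Col11a2 in 6 against 13. Mia was found in 5 of 10 against 14 of 71 and Lect1 in 4 of 10 against 6 of 71. Col11a1 was level, at 5 of 10 (50%) against 37 of 71 (52.1%), as was Hapln1, at 3 of 10 (30%) against 22 of 71 (30.99%). By the share rule, 6 of the 10 genes were higher with Sox10 (Lect1, Col2a1, Col9a2, Col11a2, Matn4 and Mia), beside 28.1% of 12671 genes, and 0 lower, beside 5.20%. Lect1 and Matn4 passed the filter only through the cells with Sox10. The median ratio was 2.20 over the 10 genes and 1.35 over all genes.

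Of those 10 mutant cells with Sox10, 3 were cells with Y-linked transcripts. Without them and the fourth such cell, 7 cells with Sox10 stood against 70, and 3 of the 9 genes that passed the filter were higher (Col9a2, Col11a2 and Mia), beside 21.1% of 11356 genes. Lect1 was then found in 1 of 7 and 6 of 70 cells, and the median number of genes was 2 in each. The 3 cells left out held 5, 7 and 9 of the 10 genes and 4973, 8246 and 9358 listed genes. The part of their Y-linked transcripts and detection in the Sox10 result was not tested. Over all 81 mutant cells the rho of the number of genes was 0.29 with the level of Sox10 and 0.04 with that of Sox9, and over the 32 wild-type cells 0.04 and 0.12.

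**Figure D5:**
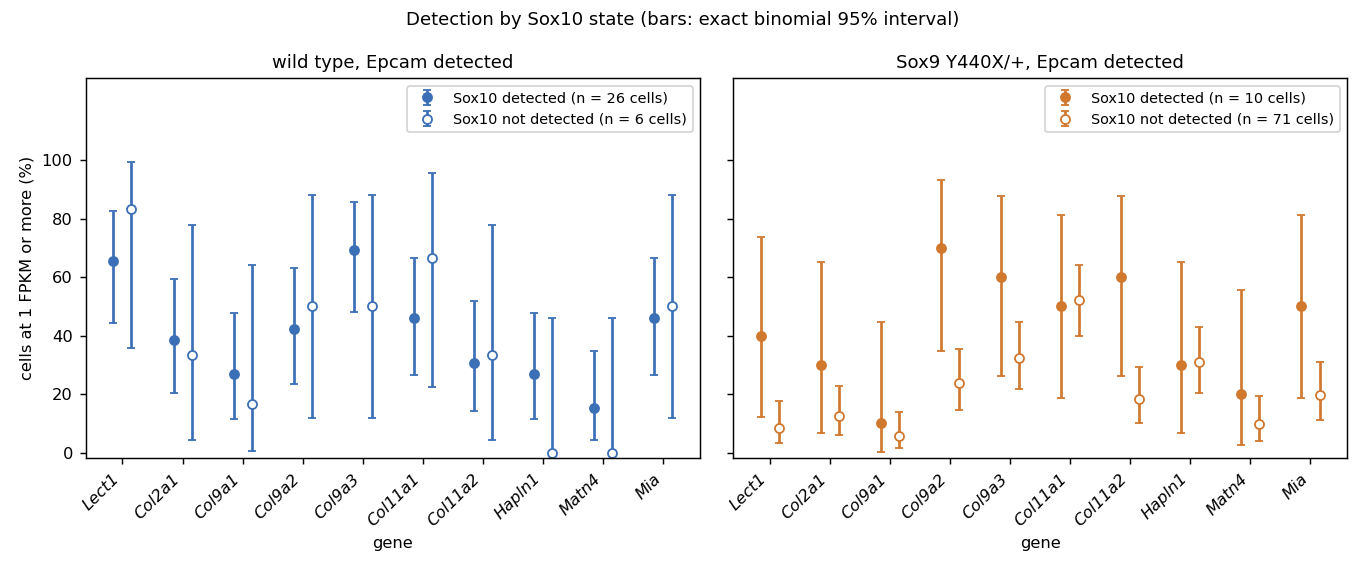
Share of Epcam cells at 1 FPKM or more (vertical axis, percent) for each gene, with filled points for cells with Sox10 and open points for cells without, in wild-type (left) and mutant cells (right). Bars are exact binomial 95% intervals, and the widest belong to the 6 wild-type cells without and the 10 mutant cells with Sox10.

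In the cells without Epcam, the genes of type II and type IX collagen had higher means than in mutant Epcam cells, and the other 6 genes had lower ones. Of these 12 mutant cells, 9 detected at least 3 of 15 mesenchymal markers, with Col1a1 and Col3a1, fibrillar collagens of connective tissue, in 9 each. Col2a1 was detected in 7 of the 12 from 26.9 through 215 to 408 FPKM, against a highest level of 51.6 FPKM in mutant Epcam cells. Col9a1 was detected in the same 7 cells from 11.97 through 205 to 405 FPKM, and Col9a3 in these 7 and 1 more from 71.6 through 216 to 588 FPKM. The 7 cells each held at least 3 mesenchymal markers. All 3 type IX chains were detected together in 5 of the 12.

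Of the other genes, Col9a2 was detected in 6 of the 12 (50%) from 16.1 through 57.9 to 94.4 FPKM. Col11a1 was detected in 5 (41.7%), from 1.97 through 11.9 to 30.1 FPKM, with a mean of 4.88 FPKM beside 15.7 in mutant Epcam cells. Lect1 was found in 2, at 41.3 and 54.7 FPKM, Mia in 2, and Hapln1 and Matn4 in 1 each. Col11a2 was listed at 0 in all 12, which allows up to 25%, and Sox10 likewise, while Sox9 was detected in 9. The single wild-type cell without Epcam held Col2a1 at 153, Col9a1 at 238, Col9a2 at 76.9, Col9a3 at 72.4 and Col11a1 at 39.5 FPKM, with Sox9 at 57.4 FPKM and neither Lect1 nor Sox10 listed. Of 10724 genes that passed the filter among mutant cells, 23.4% were lower and 15.4% higher by the share rule in cells without Epcam than in cells with it. Of the 10 cartilage matrix genes, 2 were lower (Col11a2 and Hapln1) and 2 higher (Col2a1 and Col9a1). Col11a2 and Hapln1 passed the filter only through the cells with Epcam, and Col9a1 only through those without.

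Markers of other cells were read beside these results. At least 3 mesenchymal markers were present in 4 Epcam cells of each genotype (of 32 wild type and 81 mutant), and the summed level of the 15 markers had a median of 3.17 FPKM (0 to 1578) and 0.12 FPKM (0 to 1363). Tbx18 was not detected in any Epcam cell. Of the 22 wild-type Epcam cells with Lect1, 3 held at least 3 of these markers, and of the 10 without it, 1 did. Col9a1 was the gene with the largest part in such cells, 3 of its 8 wild-type cells. Leaving out Epcam cells with 3 or more mesenchymal markers, the share rule called 5 of the 10 genes lower (Lect1, Col2a1, Col9a1, Col9a3 and Mia), beside 13.3% of 10977 genes in the same cells.

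Melanocyte and glial genes, which SOX10 also serves, were present in part. Of the 6 melanocyte markers, Tyr, Tyrp1 and Mlana were not detected in any Epcam cell, while 16 of the 32 wild-type and 24 of the 81 mutant ones had Dct and 5 of each had Pmel. Their summed level had a median of 30.04 FPKM (0 to 275) in wild-type and 0 FPKM (0 to 140) in mutant cells. Of the 7 glial and neural crest markers, Foxd3, Fabp7 and Ednrb were not detected, S100b was detected in 17 of 32 and 11 of 81 cells, and Erbb3 in 16 of 32 and 26 of 81. Their summed level had a median of 6.21 FPKM (0 to 126) and 0.068 FPKM (0 to 105). The part of either list in the level of Mia was not tested. Foxi1, a factor of mitochondria-rich cells of the sac, was detected in 5 of 32 and 11 of 81 cells. Of the Mia cells, 0 of 15 wild-type and 2 of 19 mutant ones had Foxi1. Of the Col11a1 cells, 1 of 16 wild-type and 0 of 42 mutant ones had it.

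Other cartilage genes ran from not detected to nearly general in the Epcam cells. Of 24 further genes of cartilage and its regulation in the table, 9 passed the filter, and 7 (Acan, Matn3, Ucma, Scrg1, Susd5, Itga10 and Prg4) were not detected in any Epcam cell. The share rule called 4 lower in mutant cells (Chad, Cytl1, Chst11 and Fmod) and 0 higher, beside 11.2% and 3.81% of all genes. All 4 passed the filter only through the wild type, with 4 or 5 detecting cells each, which favoured a call as lower. The mean rule called 3 lower (Chad, Cytl1 and Chst11) and 1 higher (Sox5), beside 13.3% and 12%. Among the more widely detected were Sox9, Sox6 and Sox5, given above, and Wwp2, the gene of a ubiquitin ligase, in 8 of 32 and 26 of 81 cells. Cytl1, which encodes a secreted cytokine-like protein of chondrocytes, was detected in 5 of the 32 wild-type cells and in 0 of the 81 mutant ones, which allows up to 3.70%. At the other end was Papss2, an enzyme that makes the sulphate donor for proteoglycans, in 5 of 32 and 17 of 81 cells.

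Genes that fold and modify collagens ranged from P4hb and Ppib, each at 100% in the wild type and 98.8% in the mutant, to P3h2, seen in 1 wild-type cell and 0 mutant ones. P3h1, P4ha1 and P4ha2, which hydroxylate proline, were each detected in under 30% of both genotypes. Of the 11 listed here, 10 passed the filter, and the share rule called 0 lower and 0 higher, beside 11.2% and 3.81% of all genes. The mean rule called 2 lower (Ppib and P4ha2) and 1 higher (Serpinh1), beside 13.3% and 12% of all genes. By share, Plod2, a lysyl hydroxylase, had the lowest ratio of the 10 (46.9% against 24.7% of cells). Serpinh1, the collagen chaperone HSP47, had the highest (81.2% against 90.1%). The median ratio of shares over these processing genes was 0.83, beside 0.87 for all genes and 0.61 for the 10 matrix genes.

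Genes whose level across cells ran most like these genes were found by rank correlation over Epcam cells, as a description of cells that share source and depth. In 32 wild-type cells the number of the 10 genes detected went most with Atp2b1 (rho 0.64), Camsap2 (0.62), Fkbp10 (0.61), Ptp4a2 (0.58) and Rcn3 (0.56), of 4879 genes. Fkbp10 encodes a chaperone of collagen in the endoplasmic reticulum. The level of Lect1 went most with Prelp (0.67), a leucine-rich proteoglycan of the matrix, followed by Slc1a3 (0.62), Tbca (0.60), Mir99ahg (0.58) and Myadm (0.55).

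In 81 mutant cells the highest values were lower. The top of such a ranking also depends on the number of cells, so the genotypes are not compared by it. The number of the 10 genes went most with Erbb3 (rho 0.45), a receptor of neural crest and glia, and then with Mme (0.42), Ppp1r18 (0.42), Sphk1 (0.40) and Msx2 (0.40), of 4019 genes. The rho of these 5 with listed genes ran from -0.08 (Msx2) to 0.36 (Erbb3), and that of the number itself was 0.40. Lect1 went most with Sbf1 (0.41), Chd7 (0.40), Oc90 (0.40), Guf1 (0.39) and Cacybp (0.38). No gene stood among the 5 highest in both genotypes for either measure, and the difference of the lists was not tested.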

How the data were processed

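Cells of E14.5 mouse endolymphatic sacs went through Smart-seq2 individually, per the labels' protocols. The authors deposited 1 table of FPKM values per gene and cell. Per the submitters' processing notes, build mm10 was used with Cufflinks, HTSeq, HISAT2 and SAMtools 0.1.18, in an unstated order. Strand setting and annotation release: not given in the sources used here. FPKM holds no read number, so depth is unknown and listed genes (above 0) stand in for it. The table had 48555 entries for 48490 identifiers, and entries of the same identifier were summed. Coordinates are those of the table, counted from 1.

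Detection was 1 FPKM, and the pseudocount was 1. Shares have exact Clopper-Pearson 95% intervals (scipy 1.17.1, pandas 2.3.3, numpy 2.4.6). A count of 0 allows 3 counts of the total. The call rules use a fold of 2 over genes detected in at least 10% of the cells of either group, and likeness uses genes detected in at least 30%. The script was tested on simulated data. All 10 genes, the SOX genes and Acan are named always, with the lowest and highest share ratio of each other list and the 5 most alike genes. Other names were chosen after their values were seen. The genes and lists were chosen with earlier results of these data known. Doublets were not called. Alternatives changed the detection level, pseudocount, scaling, filter, fold and the cells kept.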

Additional observations from a re-analysis of the deposited data

How the results depend on the processing

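No paired analysis was possible because no animal carries a number and each genotype counts as 1 sample. Alternatives were compared with the main values by set bounds. These were 1.5-fold for counts of genes, the interval of the main value for shares and 1 SD for levels. For the numbers of called genes, the Lect1 and Col2a1 shares and the median number of genes, 144 alternatives stayed within them and 6 did not. For the other shares and the log2 differences, 329 did and 3 did not, the latter being the Col9a1, Col9a3 and Mia shares given below. No direction of a called gene turned. The share rule called 5 genes lower, against 3, among cells with 3000 to 5000 listed genes (12 wild type and 53 mutant; 8 of the 10 genes tested, 15% of all genes called), 5 without Epcam cells with 3 or more mesenchymal markers (13.3% of all genes), and 5 at a fold of 1.5 (24.1% of all genes), beside 11.2% in the main setting. Over all settings the share rule called 2 to 5 and the mean rule 3 to 5. The percentage of all genes called changed with the setting too, so these ranges alone are no result about the 10 genes. The mutant share of Col2a1 was 7.55% among cells with 3000 to 5000 listed genes, where the wild-type shares were 8.33% for Col9a1, 83.3% for Col9a3 and 75% for Mia. The genes higher with Sox10 in mutant cells numbered 3, against 6, without the cells with Y-linked transcripts (21.1% of all genes), 2 at a fold of 3 (16.5%) and 8 at a fold of 1.5 (42.2%), beside 28.1% in the main setting, and ranged from 2 to 8 over the 15 settings. These Sox10 settings, and the means without the highest cells, were chosen after seeing the data. The cause was not tested. Lect1 was detected in 65.6% to 75% of wild-type and 9.09% to 14.8% of mutant cells over all settings. The sign of the log2 difference held in 14 of 14 settings for 9 genes and in 12 of 14 for Matn4. Detection per cell limits every share, since the read depth is unknown.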

Other observations

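Other matrix genes of the Epcam cells are given here as values. Oc90, the main soluble protein of otoconia, was detected in all 32 wild-type cells and in 35 of 81 mutant cells (43.2%), at means of 1914 and 301 FPKM. It was the 1 gene of 10 from other acellular gels of the inner ear that passed the filter. Of 13 collagen genes of other types, 8 passed it, and the share rule called 3 lower in mutant cells, beside 11.2% of all genes. These were Col4a1 (14 of 32 against 10 of 81 cells), Col4a2 (18 of 32 against 13 of 81), the 2 chains of basement membrane collagen, and Col5a2 (6 of 32 against 2 of 81). Col5a2 passed the filter only through the wild type, which favoured its call as lower. The mean rule called 5 lower, these 3 with Col1a1 and Col1a2, beside 13.3%. The Col1a1 call rested largely on 1 wild-type cell, which held 300 FPKM and 12 mesenchymal markers. The other wild-type Epcam cells that detected Col1a1 held 18.4 and 1.62 FPKM. By share Col1a1 went the other way, with 3 of 32 wild-type against 10 of 81 mutant Epcam cells. Col14a1 was detected in 65.6% and 56.8% of cells and Col18a1 in 71.9% and 51.9%, neither of them called. In the 12 mutant cells without Epcam, Col4a1 was detected in 8 and Col4a2 in 6.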
